A study of Homo sapiens with 4 samples.

Results

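The genes described here are carbonic anhydrases (CA12, CA9, CA2, CA13 and CA5B), transporters that move acid or bicarbonate across the plasma membrane (SLC16A1, SLC16A3 and SLC4A7), and BSG. The last encodes an ancillary protein of such transporters. They were chosen by gene symbol, and 8 of the 9 were found among the 12912 genes of the count table. SLC16A1, which encodes the monocarboxylate transporter MCT1, was not analysed here. Each of the 8 symbols occurs with 1 Ensembl identifier in the table.

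RNA was sequenced from 786-O, a clear cell renal cell carcinoma (ccRCC) line without functional VHL, in its VHL-null control subline (786-O-Ctrl, here control cells) and a subline given VHL back (786-O-VHL, here VHL-restored cells), with 2 libraries each. In the latter, HA-VHL was introduced by retrovirus (pBabe-puro), and both sublines are the 786-OTR version of the labels, in which a retroviral triple reporter joins GFP, luciferase and thymidine kinase. Each group is 1 subline, grown in RPMI1640 with serum, and no source used here gives the control vector or says that its libraries were separate cultures, so p-values measure the spread between these libraries, which may be technical. The comparison asks how these mRNAs differ once VHL is expressed again.

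Carbonic anhydrases catalyse the interconversion of carbon dioxide and water with bicarbonate and a proton. CA12 and CA9 are transmembrane enzymes whose catalytic domain faces the outside of the cell, CA2 and CA13 are cytosolic, and CA5B is mitochondrial. Glycolytic cells release lactate together with a proton through MCT4, the product of SLC16A3, which reaches the cell surface with its ancillary protein basigin (BSG). SLC4A7 encodes NBCn1, an electroneutral sodium-bicarbonate cotransporter that brings bicarbonate into the cell. VHL is the substrate receptor of a ubiquitin ligase that degrades hypoxia-inducible factor (HIF) α subunits, and CA9, CA12 and SLC16A3 are known as hypoxia-induced genes in many tissues. HIF dimers bind DNA at a short core of the letters ACGTG or GCGTG.

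Promoter sequences are shown for CA12 and SLC16A3, which fell in VHL-restored cells, and for CA9, whose lower values did not pass the test, to place those letters relative to the start of transcription. RefSeq windows (GRCh38.p14) that run from 250 bases before to 50 bases after a start were available for 6 of the genes, 12 windows in all. The letters ACGTG occurred on either strand in 21.4% of all 35116 windows, GCGTG in 36.5%, and TACGTG, which contains ACGTG, in 3.2%. The bases upstream of the start of CA12 and CA9, and a stretch of 30 bases upstream of 1 of the 5 SLC16A3 starts, follow in the 5′ to 3′ direction of the gene, with each of these matches on either strand in capitals.
CA12, chr15:63674046-63674295 of GRCh37, minus strand: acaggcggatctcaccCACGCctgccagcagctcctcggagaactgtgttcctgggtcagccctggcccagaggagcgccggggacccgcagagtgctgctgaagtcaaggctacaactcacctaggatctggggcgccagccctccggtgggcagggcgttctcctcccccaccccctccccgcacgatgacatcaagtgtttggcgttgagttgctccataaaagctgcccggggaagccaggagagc
CA9, chr9:35673675-35673924 of GRCh37, plus strand: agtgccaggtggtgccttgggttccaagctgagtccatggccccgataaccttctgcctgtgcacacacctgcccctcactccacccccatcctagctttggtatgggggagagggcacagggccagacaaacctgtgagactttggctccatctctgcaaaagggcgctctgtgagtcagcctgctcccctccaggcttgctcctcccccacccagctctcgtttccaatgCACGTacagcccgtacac
SLC16A3, chr17:80186838-80186867 of GRCh37, plus strand: cgccaggcggtgACGTGcgcgggggACGTG
The positions on GRCh37 are those of the exact match of each sequence, found once on the chromosome. In the CA9 window ACGTG lay on the opposite strand from -18 to -14, counted from the start of transcription, and was part of TACGTG. The CA12 window held no ACGTG, and GCGTG lay on its opposite strand from -234 to -230 and from 40 to 44. SLC16A3 had ACGTG on its own strand from -68 to -64 and from -55 to -51 in this window, and no ACGTG in its other 4, of which 1 held 3 matches of GCGTG and another held 1. Among the genes that were higher in VHL-restored cells, the window of CA5B held 6 matches of GCGTG and 1 of ACGTG, and 1 of the 2 windows each of BSG and SLC4A7 held GCGTG. BSG also had ACGTG in that window, from -192 to -188 on its own strand and from -193 to -189 on the opposite strand. These 2 matches overlap and are 1 site read on both strands. These matches are letters in a window and say nothing of binding.

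Library totals were 22141263 and 15714166 counts for the control cells, named the deeper and the shallower library because their columns share 1 replicate number. VHL-restored replicates 1 and 2 held 2807779 and 16114120 counts. A count of 0 allows up to 3 counts, or 1.02 CPM (counts scaled to a common library size, with the TMM factors of edgeR) in VHL-restored replicate 1 and 0.142 to 0.199 CPM in the other libraries, which covers counting error only. VHL mRNA, which checks the labels, was at 42.9 and 43.9 CPM in control cells and at 178 and 163 CPM in VHL-restored cells, a fitted rise of 3.88-fold. Of 14 renal epithelial markers 13 were in the table, with a summed level of 3805 to 3827 CPM in control cells and 2422 to 2554 CPM in VHL-restored cells. VIM, a mesenchymal gene that ccRCC cells express, carried most of that difference, with means of 1684 and 730 CPM. The kidney cadherin genes CDH16 and CDH6 rose, with log2 fold changes of 1.75 and 0.45 (edgeR FDR = 5.09e-11 and 0.000144), and 6 of the 13 markers fell. Among the markers AQP1 and CUBN, markers of the proximal tubule, had group means between 0.725 and 1.41 CPM. Of 4 endothelial markers the table held PECAM1 and KDR, with a summed level of 0.465 to 0.760 CPM in control cells and 0.339 to 0.713 CPM in VHL-restored cells. For fibroblasts and pericytes, 3 of 5 markers were in the table, at 10.4 to 11.4 CPM in control cells and 14.6 to 15.3 CPM in VHL-restored cells. Markers of erythroid cells and leukocytes were not analysed here. Since the RNA came from cultured 786-O cells and not from tissue, the markers describe mRNA of that line. Their relation to the other results was not tested.

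CA12 was the carbonic anhydrase gene with the highest level in control cells and the one that fell most in VHL-restored cells, and SLC16A3 fell as well. CA2, CA5B, SLC4A7 and BSG rose. In edgeR's quasi-likelihood test with Benjamini-Hochberg adjustment over 12335 genes (FDR), all 8 genes were tested, of which 2 were lower and 4 were higher in VHL-restored cells at an FDR under 0.05. The 6 called genes are 75.0% of the 8, beside 64.5% of all genes tested, and by direction 31.9% of all genes were lower and 32.6% higher. At more than 4-fold with an FDR under 0.01, the rule of the study for differential mRNA, 1 of the 8 genes passed (CA12), beside 4.46% of all genes tested (1.54% lower and 2.92% higher). Log2 fold changes are given as VHL-restored over control throughout, and the median of the 8 was -0.10, beside 0.02 over all genes tested. In none of the 8 genes did the libraries of the groups overlap, beside 80.0% of all genes tested without overlap (39.2% lower and 40.8% higher), so separation of the libraries alone says little in this comparison. An exact permutation test (two-sided) on these 4 libraries cannot go below p = 0.333, so calls depend on the variance information edgeR borrows across genes. Scaling by library totals alone moved the median of all genes by 0.13 on the log2 scale and raised the share of higher genes among all called from 50.5% to 62.1%, so that changes are read relative to the other genes.

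**Figure D1:**
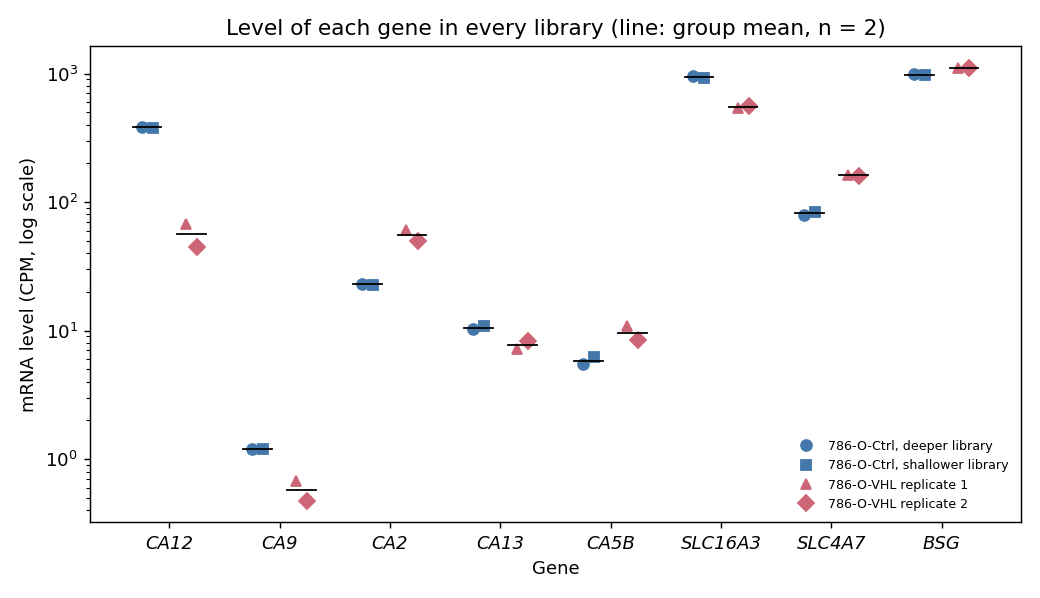
Level of each gene in CPM on a log axis, with 1 symbol per library (blue, 786-O-Ctrl; red, 786-O-VHL) and a line at the mean of each group (n = 2). CA12 sits at 378 and 387 CPM in both blue libraries and at 67.8 and 45.0 CPM in both red ones, while CA2 rises to 60.0 and 49.8 CPM.

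CA12 (ENSG00000074410.14) spans 63613577 to 63674045 on chromosome 15 (GRCh37, as for all positions given here; minus strand), with no annotated gene overlapping its exons. CA12 mRNA was at 387 CPM in the deeper and 378 CPM in the shallower control library, and at 67.8 and 45.0 CPM in VHL-restored replicates 1 and 2. Both VHL-restored libraries were far below both control libraries, and they differed from each other more than the controls did. The group means were 382 ± 5.71 and 56.4 ± 16.2 CPM (SD, n = 2 each), and edgeR fitted a log2 fold change of -2.91, or 7.53-fold lower (standard error, SE, 0.0972 and edgeR FDR = 5.94e-20). By this size CA12 was the 76th of the 12335 genes from the lowest log2 fold change, and by p the 32nd of all. Leaving out each library in turn gave log2 fold changes between -3.09 and -2.50, the latter without VHL-restored replicate 2. In bulk RNA, fewer cells with CA12 mRNA and less of it per cell cannot be told apart.

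CA9 (ENSG00000107159.13), the other transmembrane enzyme, lies on the plus strand of chromosome 9 from 35673925 to 35681156 and had the fewest counts of the 8 genes. Its counts were 25 and 18 in the deeper and the shallower control library and 2 and 8 in VHL-restored replicates 1 and 2, or 1.19, 1.20, 0.678 and 0.475 CPM. The VHL-restored libraries were below both controls, but the 2 counts of replicate 1 are under the limit of 3 counts. CA9 had a log2 fold change of -1.21 (SE 0.547), which did not pass the threshold (edgeR FDR = 0.0536, unadjusted p = 0.0348). On the opposite strand, exons of ARHGEF39 cover 35.7% of the exon length of CA9, and the sources used here do not say whether the counting used strand. ARHGEF39 itself was at 12.1 ± 1.34 CPM in control cells and 8.64 ± 0.710 CPM in VHL-restored cells (SD, n = 2 each). Its log2 fold change was -0.45 (edgeR FDR = 0.0238), and the part of its reads in the CA9 counts was not tested.

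CA2 (ENSG00000104267.10, chromosome 8 from 86376197 to 86393722, plus strand) encodes the abundant cytosolic enzyme of many tissues, including the kidney. It was at 23.1 and 22.7 CPM in the deeper and the shallower control library and at 60.0 and 49.8 CPM in VHL-restored replicates 1 and 2. All values in VHL-restored cells were above those in control cells, again with the wider spread in VHL-restored cells. The group means of 22.9 ± 0.281 and 54.9 ± 7.23 CPM (SD, n = 2 each) differed by a fitted log2 fold change of 1.20, or 2.29-fold (SE 0.102 and edgeR FDR = 3.51e-11). CA13 (ENSG00000185015.8), a second cytosolic enzyme on the plus strand of the same chromosome from 86132816 to 86196302, was at 10.2 and 10.8 CPM in control cells and at 7.12 and 8.31 CPM in VHL-restored cells. Its values were lower in both VHL-restored libraries by an amount that did not pass the threshold, with a log2 fold change of -0.38 (SE 0.179 and edgeR FDR = 0.0682) and a 95% interval from -0.74 to -0.01. Of 6 markers of intercalated cells, which hold much CA2 in the kidney, ATP6V0A4, KIT and SLC26A4 were in the table. Their summed level was 1.90 to 1.93 CPM in control cells and 3.09 to 4.75 CPM in VHL-restored cells. That difference rests on few counts, since KIT had 0 and 1 in control cells and 2 and 11 in VHL-restored cells. SLC26A4 had 5 and 5, then 5 and 9 counts, and neither of these genes was tested. ATP6V0A4 was tested and did not pass the threshold, with a log2 fold change of 0.31 (edgeR FDR = 0.481). The RNA came from cultured 786-O cells and not from tissue, so these values describe marker mRNA in that line. Their relation to the rise of CA2 was not tested. CA2 and CA13 had fold changes of opposite sign, with CA2 alone past the threshold.

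CA5B (ENSG00000169239.13), which encodes a mitochondrial enzyme, lies on the plus strand of chromosome X from 15706953 to 15806534. It was at 5.51 and 6.18 CPM in control cells and at 10.9 and 8.43 CPM in VHL-restored cells, so the groups did not overlap. Its log2 fold change was 0.63 (SE 0.203 and edgeR FDR = 0.00847). The call was lost with DESeq2 (adjusted p = 0.0817) and without the deeper control library (edgeR FDR = 0.109), and with libraries thinned to the depth of the shallowest the log2 fold change was 1.22. CA5BP1, an annotated pseudogene copy, shares 0.3% of the exon length of CA5B on the same strand and may split reads with it, which makes the CA5B counts uncertain, and exons of INE2 overlap it on the opposite strand.

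**Figure D2:**
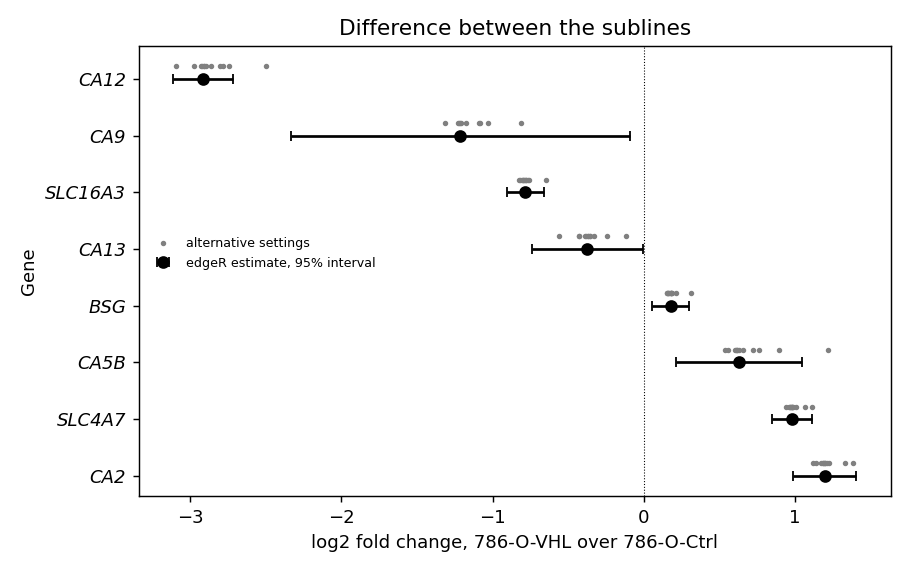
Log2 fold change of each gene (black point, edgeR estimate; bar, 95% interval) and its values under the alternative settings (grey points), with 786-O-VHL over 786-O-Ctrl on the x axis. CA12 lies at -2.91, apart from the other 7 genes, which lie between -1.21 and 1.20.

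The SLC16A3 gene (ENSG00000141526.16, chromosome 17 from 80175810 to 80219005, plus strand) encodes the lactate exporter MCT4. It was at 961 and 929 CPM in control cells and at 536 and 559 CPM in VHL-restored cells. Replicates lay close together and the groups were well apart. Group means of 945 ± 22.8 and 548 ± 16.2 CPM (SD, n = 2 each) differed by a fitted log2 fold change of -0.78, or 1.72-fold lower in VHL-restored cells (SE 0.0605 and edgeR FDR = 4.82e-12). Leaving out each library or changing the scaling, the filter or the tool kept its log2 fold change between -0.82 and -0.65 and its call. Exons of CSNK1D on the opposite strand cover 5.2% of its exon length.

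BSG (ENSG00000172270.19, chromosome 19 from 571277 to 583494, plus strand), the ancillary protein of MCT4, went the other way by a small amount. Its mRNA was at 989 and 968 CPM in control cells and at 1099.8 and 1112 CPM in VHL-restored cells, without overlap. The log2 fold change was 0.18 (SE 0.0584 and edgeR FDR = 0.00961). That call was lost without the deeper (edgeR FDR = 0.172) and without the shallower control library (edgeR FDR = 0.262), with log2 fold changes of 0.19 and 0.16. Per kilobase of exon, the level of SLC16A3 over that of BSG was 0.465 and 0.459 in the control libraries and 0.233 and 0.240 in the VHL-restored libraries. The ratio depends on the length assumed, since on canonical transcript lengths, an alternative chosen after seeing the data, its mean was 0.723 in control cells and 0.371 in VHL-restored cells, and on both scales it was lower in each VHL-restored library.

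SLC4A7 (ENSG00000033867.16) spans 27414212 to 27525911 on chromosome 3 (minus strand), with no annotated gene overlapping its exons. This bicarbonate importer was at 79.7 and 83.6 CPM in control cells and at 161 and 160.5 CPM in VHL-restored cells. The replicates of VHL-restored cells were nearly equal despite their difference in depth. Group means of 81.6 ± 2.77 and 161 ± 0.719 CPM (SD, n = 2 each) differed by a fitted log2 fold change of 0.98, or 1.97-fold (SE 0.0655 and edgeR FDR = 2.28e-13), and leaving out each library in turn gave between 0.94 and 1.01.

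**Figure D3:**
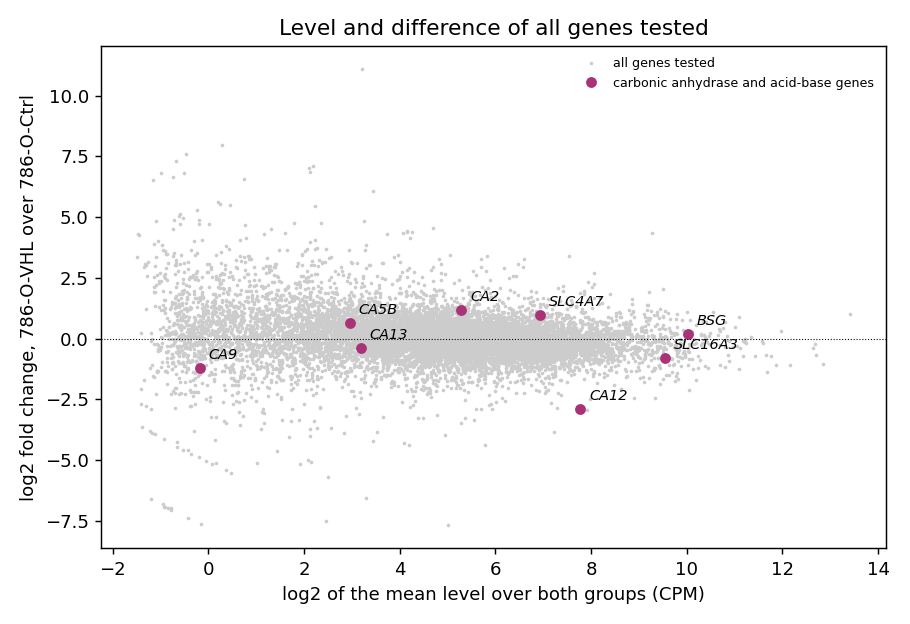
Log2 fold change (y axis) against the log2 of the mean CPM over both groups (x axis) for all 12335 genes tested (grey), with the 8 carbonic anhydrase and transport genes in purple. SLC16A3 and BSG lie at the high end of the x axis with log2 fold changes of -0.78 and 0.18, and CA12 lies below most genes of its level.

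The carbonic anhydrase mRNAs of the family were summed to give the share of each gene in each subline. Per kilobase of exon CA12 held most of the sum in control cells and CA2 in VHL-restored cells, while on unscaled counts neither held most of it in VHL-restored cells. Of 15 genes of the family 9 were in the table and 8 were tested. Of these 8, 3 rose (CA11, CA2 and CA5B), 1 fell (CA12) and 4 did not pass the threshold. The median of their log2 fold changes was -0.29. Over all genes tested, 64.5% were called in either direction (32.6% higher and 31.9% lower). Summed over the family, the level per kilobase of exon was 70.9 and 69.6 in control cells and 48.6 and 39.6 in VHL-restored cells (CPM per kilobase). CA12 made up 77.9% and 77.7% of that sum in the deeper and the shallower control library and 20.0% and 16.2% in VHL-restored replicates 1 and 2. The difference was -59.7 percentage points (two-sided exact permutation p = 0.333, the smallest these 4 libraries allow). CA2 made up 16.2% and 16.3% in control cells and 61.6% and 62.6% in VHL-restored cells, so that the order of both genes turned between the sublines on this scale. The sum includes CA11, whose protein has no catalytic activity. CA11 made up 0.275% and 0.245% of it in control cells and 10.4% and 12.9% in VHL-restored replicates 1 and 2. On counts alone, without length scaling, CA12 held 90.0% (95% Wilson interval 89.4% to 90.6%) and 89.8% (89.0% to 90.5%) of the family's counts in control cells, and 42.6% (38.2% to 47.2%) and 36.4% (34.4% to 38.5%) in VHL-restored replicates 1 and 2, where the intervals cover counting error only. CA2 held 5.39% of the counts in both control libraries, and 37.7% and 40.3% in VHL-restored replicates 1 and 2, so on this scale it passed CA12 in replicate 2 alone. The level of CA12 over that of CA2 per kilobase was 4.79 and 4.77 in control cells and 0.324 and 0.259 in VHL-restored cells, against 16.7 and 16.6 and then 1.13 and 0.902 without length scaling.

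**Figure D4:**
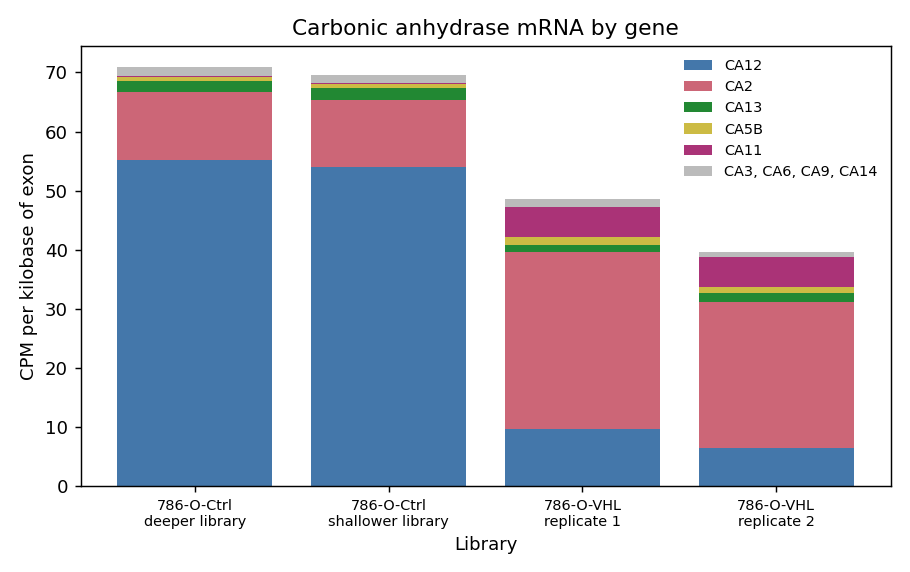
Carbonic anhydrase mRNA in each library as stacked bars in CPM per kilobase of exon, by gene, from a zero baseline. CA12 forms 77.7% and 77.9% of the bars of 786-O-Ctrl and 16.2% and 20.0% of those of 786-O-VHL, where CA2 forms 61.6% and 62.6%.

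Levels per kilobase of exon order the carbonic anhydrases among the 8 genes as CA12, CA2, CA13, CA9 and CA5B in control cells, with means of 54.7, 11.4, 1.87, 0.746 and 0.686 CPM per kilobase. The last 2 in that order were close, since CA5B had an SD of 0.0558 CPM per kilobase and lay 0.646 and 0.725 in its libraries against 0.743 and 0.749 for CA9. In VHL-restored cells the order was CA2, CA12, CA13, CA5B and CA9, with means of 27.4, 8.06, 1.38, 1.13 and 0.361 CPM per kilobase, where CA13 (1.27 and 1.49) and CA5B (1.27 and 0.990) overlapped within their libraries. On canonical transcript lengths the last 2 genes of the order in control cells changed places, with means of 0.855 for CA5B and 0.771 CPM per kilobase for CA9. For the transporters and the ancillary gene BSG the order by this scale was BSG, SLC16A3 and SLC4A7 in both sublines. Means were 221, 102 and 8.49 CPM per kilobase in control cells and 250.3, 59.3 and 16.7 CPM per kilobase in VHL-restored cells.

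CA11, which encodes a carbonic anhydrase-related protein without catalytic activity, showed the highest fold change of the family. It had 8 and 5 counts in control cells and 29 and 167 counts in VHL-restored replicates 1 and 2, or 0.380, 0.332, 9.84 and 9.92 CPM. The log2 fold change was 4.75 (SE 0.336 and edgeR FDR = 7.53e-13), the 27th from the top of all genes tested. CA14 and CA6, a transmembrane and a secreted enzyme, were at or below 1.47 CPM in every library and did not pass the threshold (edgeR FDR = 0.677 and 0.172). CA3 had 1 to 4 counts per library and was not tested.

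Other acid-base transporters were counted from families listed by name, and the counts leave out a few genes that are not reported here. Of 10 tested monocarboxylate transporters and ancillary proteins counted, 2 rose and 4 fell, with a median log2 fold change of -0.20, beside 64.5% of all genes tested called in either direction (32.6% higher and 31.9% lower). SLC16A4 rose, as did BSG, with a log2 fold change of 0.88 (SE 0.163 and edgeR FDR = 2.94e-05), a call lost with thinned libraries. SLC16A9, SLC16A13, SLC16A3 and NPTN fell, with log2 fold changes of -1.54, -1.35, -0.78 and -0.56. NPTN encodes neuroplastin, a relative of basigin that can also accompany monocarboxylate transporters, and it was at 133 ± 4.67 CPM in control cells and 89.1 ± 4.16 CPM in VHL-restored cells (SD, n = 2 each). SLC16A9 rested on VHL-restored replicate 2, without which its log2 fold change was -0.34 (edgeR FDR = 0.621), and its call was lost with DESeq2 as well.

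Of 6 tested SLC4 bicarbonate transporters, SLC4A7 rose, SLC4A8 fell and 4 did not pass the threshold, and the median log2 fold change was -0.02. Of all genes tested, 64.5% were called in either direction (32.6% higher and 31.9% lower). SLC4A8, a sodium-driven chloride-bicarbonate exchanger, had 55 and 46 counts in control cells and 2 and 16 in VHL-restored cells, with a log2 fold change of -1.63 (SE 0.404 and edgeR FDR = 0.000921). Without VHL-restored replicate 2 its edgeR FDR was 0.0561. The anion exchanger SLC4A2 was at 470 ± 7.69 CPM in control cells and 452 ± 11.7 CPM in VHL-restored cells (SD, n = 2 each), with a log2 fold change of -0.05 and a 95% interval from -0.18 to 0.07. SLC4A4, a sodium-bicarbonate cotransporter of the proximal tubule, had an interval from -0.20 to 0.21 around 0.00.

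Among 6 tested SLC26 anion exchangers, SLC26A11 rose, SLC26A2 and SLC26A6 fell and 3 did not pass the threshold (median log2 fold change -0.39). These counts stand beside 64.5% of all genes tested called in either direction (32.6% higher and 31.9% lower). SLC26A11 was at 2.28 and 2.86 CPM in control cells and at 11.2 and 13.7 CPM in VHL-restored cells, a log2 fold change of 2.37 (SE 0.218 and edgeR FDR = 1.86e-10). SLC26A2, a sulfate transporter, and SLC26A6 had log2 fold changes of -0.49 and -0.45.

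Of 9 tested sodium-proton exchangers and partners counted, 5 rose and 1 fell (median log2 fold change 0.51). This is to be read against 64.5% of all genes tested called in either direction (32.6% higher and 31.9% lower). The number that rose was 3 with thinned libraries and 7 with library totals alone. The scaffold genes of exchangers at the apical membrane moved in opposite directions, since SLC9A3R2 (NHERF2) rose with a log2 fold change of 1.27 (edgeR FDR = 1.73e-14) and SLC9A3R1 (NHERF1) fell with a log2 fold change of -0.63 (edgeR FDR = 3.24e-08). TESC and CHP1, which encode calcineurin B homologous partners of these exchangers, rose with log2 fold changes of 1.95 (SE 0.427) and 0.40 (SE 0.0685). TESC rests on few counts, 11 and 13 in control cells and 9 and 42 in VHL-restored replicates 1 and 2. It could be tested under 10 of the 12 alternatives and kept its call in these. SLC9A8 rose with a log2 fold change of 0.51.

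Of 5 tested proton channels and acid sensors, 0 rose and 0 fell at the threshold, with a median log2 fold change of 0.21. Over all genes tested, 64.5% were called in either direction (32.6% higher and 31.9% lower). The acid-sensing channels ASIC1, ASIC2 and ASIC3 had log2 fold changes of 0.39, 0.37 and 0.21 (edgeR FDR = 0.114, 0.228 and 0.395). GPR132 went the other way with -0.50 (edgeR FDR = 0.0897), and TMEM206 was at 0.07 (edgeR FDR = 0.684).

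**Figure D5:**
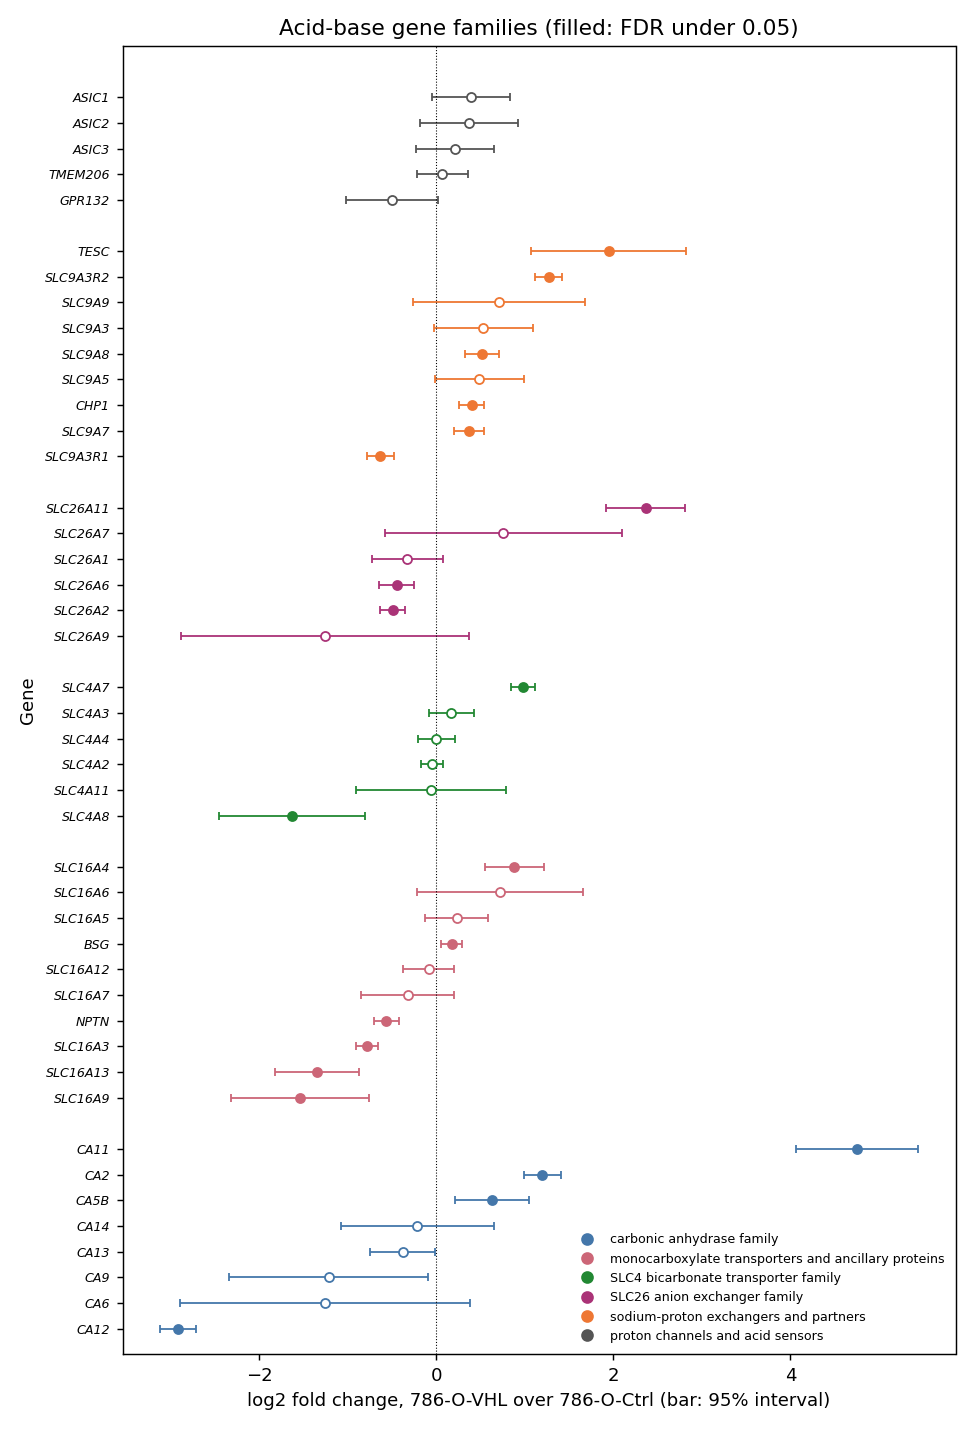
Log2 fold change with its 95% interval for tested genes of 6 acid-base families (786-O-VHL over 786-O-Ctrl, x axis), coloured by family, with filled points at an edgeR FDR under 0.05. CA11 at 4.75 and SLC26A11 at 2.37 lie on the right, and CA12 at -2.91 and SLC4A8 at -1.63 on the left. A few genes of the families are not shown.

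The genes whose pattern over the 4 libraries was most like that of CA12, by the root mean square difference of log2 CPM centred per gene, were DBH, GAL3ST1, CSF2, SYT13 and KRT15, with differences between 0.0969 and 0.132. GAL3ST1, which encodes a sulfotransferase that makes sulfatide, was at 271 ± 14.0 CPM in control cells and 40.4 ± 6.26 CPM in VHL-restored cells (SD, n = 2 each). DBH was at 2.24 CPM in control cells and 0.259 CPM in VHL-restored cells, so its likeness rests on few counts. Most like SLC16A3 were HTRA2, NRXN3, PFN1, SFXN3 and JPT2, with differences between 0.0115 and 0.0176 and log2 fold changes between -0.80 and -0.77. Over 4 libraries in 2 groups this measure follows mainly the size of the group difference.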

How the data were processed

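Total RNA was taken in duplicate from each subline and sequenced on an Illumina instrument. The authors aligned reads to hg19 and deposited raw counts per gene for 12912 genes. The submitters' processing notes name STAR and CASAVA. How reads were counted (tool, strand, annotation) is not stated in these sources. The samples were grouped by title.

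For the test (edgeR 4.0.16, R 4.3.3), filterByExpr with a minimum count of 10 left 12335 genes. TMM scaling, a quasi-likelihood fit on group alone and Benjamini-Hochberg adjustment followed. Standard errors are those implied by the F statistic. Positions and exon lengths came from GENCODE 44 on GRCh37, in which 12749 identifiers matched. Simulated counts for 12335 genes, drawn at 1 common dispersion with 200 genes changed by 2-, 4- or 8-fold, gave 192 recovered and 5 false calls. Far fewer genes changed there than were called in the data, and smaller fold changes were not simulated. The simulation therefore checks the procedure and does not give the error rate of the calls reported here. Replicates differed by more than sampling noise (chi-square per degree of freedom 2.22 for the control and 2.72 for the VHL-restored libraries).

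Alternatives were DESeq2 1.42.0, limma-voom (limma 3.58.1), RLE factors, library totals, no filter, at least 10 counts in every library, thinning, a prior count of 2, each library left out and, added later, canonical transcript length. A planned share of SLC16A3 in SLC16A1 plus SLC16A3 was not computed, since SLC16A1 was not analysed here. Named genes are all members, VHL, and of each family at most 4 per direction by fold change at an FDR under 0.01, plus the 5 genes most like CA12 and SLC16A3. ARHGEF39, genes named without passing the threshold and overlapping genes fall outside this rule. Some genes of the families are not reported here, and they were left out of the family counts and medians after these had been seen. The members and lists were chosen with earlier results of these data known.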

Additional observations from a re-analysis of the deposited data

How the results depend on the processing

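All 94 log2 fold changes of the 8 genes under the alternatives kept their direction, and CA12, CA2, SLC16A3 and SLC4A7 kept their call under each of the 12. CA9 and CA13 passed under none of theirs, with adjusted p from 0.0507 to 0.566 and from 0.0583 to 0.779, and CA9 was left untested by thinning and by the strict filter. CA5B was 0.66 with DESeq2 (adjusted p = 0.0817). Leaving out libraries gave 0.54 to 0.90 for CA5B, 0.16 to 0.19 for BSG and 2 to 4 for the number of higher genes. Without length scaling the CA12 share differed by -50.4 percentage points. Of 144 family counts, 134 stayed within 1.5 times. With library totals alone 2 SLC4 genes and 1 proton channel or sensor were higher. With thinning, 1 monocarboxylate transporter or ancillary protein and 3 sodium-proton genes were higher and 0 SLC4 genes were lower. With 10 counts required in every library, 0 SLC4 genes were lower, since SLC4A8 was not tested. Leaving out libraries gave 1 to 2 higher monocarboxylate transporters or ancillary proteins, 0 to 1 lower SLC4 genes and 0 to 1 higher proton channels or sensors. The causes of the other changes were not tested. Where 1 library of a group was left out, the lone one was assumed to vary like the other group. No paired analysis was possible because both control columns carry the same replicate number, so the fit with that number as a block was not run. Over all genes, 550 passed 4-fold with an FDR under 0.01, against 232 with 10 counts required in every library, 335 with thinning and 422 to 578 under the other alternatives. In VHL-restored replicate 1, the library with the lowest total, CA9 had 2 counts, and without that library its adjusted p was 0.0667.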
